A study of Bos taurus with 2 samples.

Results

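Leukocyte integrins and their partners were followed in whole blood of cattle, in 1 specimen of low and 1 of high feed efficiency. Members were all array probes named for ITGB2, ITGAL, ITGAM, ITGAX, ITGA4, ITGB1, ITGB7, SELPLG or ICAM1, by the array's gene name or by its RefSeq accession. The rule found 26 of 43653 probes, for 8 of the 9 genes, where 16959 genes in all had a probe; ITGAX matched no probe. Despite the working name of leukocyte integrins and selectins, no member is a selectin; SELPLG is a selectin ligand, and selectins are described with the wider adhesion genes. The series title names Holstein cattle and residual feed intake, which is the feed eaten beyond what an animal's size and production call for. Total RNA of each specimen was labelled with Cy3 and read on 1 Agilent bovine array. Breed, tissue and array are shared by both groups, and the labels do not give the age, the sex or the number of animals behind a specimen.

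Integrins are pairs of an alpha and a beta chain that hold leukocytes to vessel walls, matrix and other cells. ITGB2 encodes the beta chain CD18, which pairs with the alpha chains of ITGAL (to form LFA-1), ITGAM (Mac-1) and ITGAX. ITGA4 encodes an alpha chain that pairs with ITGB1 (VLA-4) or with ITGB7, the latter used by lymphocytes that home to the gut. Selectins slow flowing leukocytes into rolling before integrins arrest them; SELPLG encodes PSGL-1, their main ligand on leukocytes, and ICAM1 encodes a ligand of LFA-1 and Mac-1 that is made by endothelium and by activated leukocytes.

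Intensities are scanner values after background subtraction. Differences are on the log2 scale, low against high feed efficiency (positive means higher in low), after each array was divided by the 75th percentile of its probes (98 for low, 81 for high), so that equal intensities on both arrays give a difference of about -0.27. A probe counted as above background over an intensity of 10.9. Both arrays lay on 1 slide and 1 scan. With 1 array per group no difference has a replicate check or a test. Probes spotted 4 times on each array gave a measure of spot error, an SD of the difference of 0.10 (12 bright probes) and 0.34 (25 dim probes), bright meaning above the median signal of all measured genes. In bulk blood, fewer cells of a type cannot be told apart from less RNA per cell.

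Of the 26 member probes 19 were above background on both arrays, 4 on 1 array only and 2 on neither, and 1 was left out by its flag. The 19 gave a value for 7 genes, each by its brightest probe. None of the 7 was at least 2-fold apart, where 0.938% of the 10339 genes measured were (0.368% higher and 0.571% lower in low feed efficiency). The median of the 7 was -0.05, against -0.04 for all genes, with 3 members above and 4 below the latter. SELPLG lay highest with 0.46 and ITGB1 lowest with -0.49, although the other ITGB1 probes lay above 0.

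**Figure D1:**
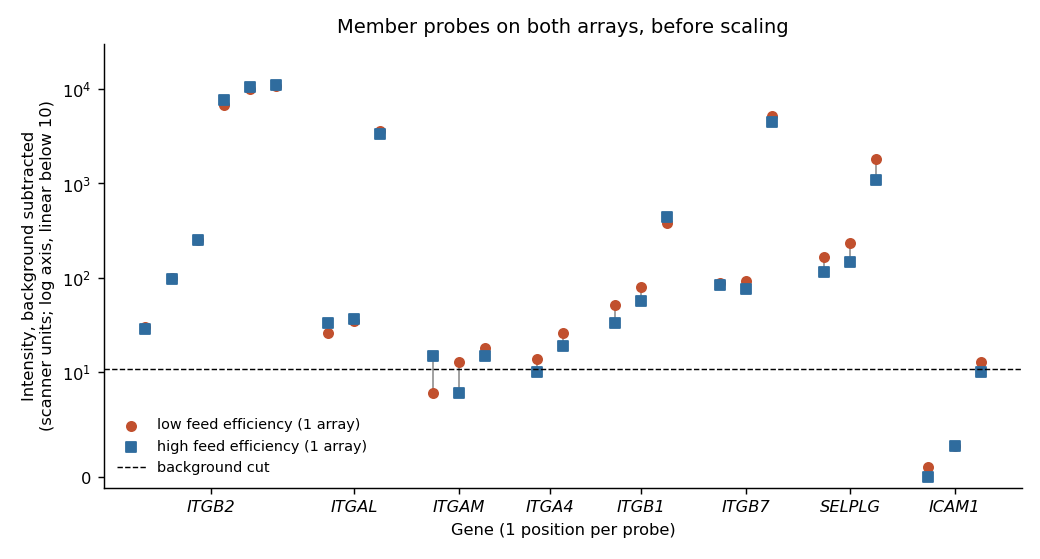
Background-subtracted intensity of each of the 26 member probes on the low (circles) and high feed efficiency array (squares), on a log axis that is linear below 10; the dashed line is the background cut of 10.9. ICAM1, ITGAM and ITGA4 probes lie near or under the cut. The 3 SELPLG probes all lie higher on the low array, as do those of ITGA4 and ITGB7. Intensities are shown before scaling, and the low array was the brighter (75th percentile 98 against 81).

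SELPLG, the selectin ligand, was higher in low feed efficiency by all 3 of its probes. The brightest gave an intensity of 1816 for low and 1092 for high feed efficiency, or a difference of 0.46 (1.37-fold). The second read 233 against 149, a difference of 0.37, and the third 168 against 115, a difference of 0.27. All 6 spots were flagged good by the scanner software, and all 3 probes are listed for both RefSeq transcripts of the gene, so they do not tell the transcripts apart. The 3 differences spanned 0.19, a narrower range than in 70.9% of the 1306 genes with 3 such probes, and in 42 other genes of that kind every probe was at least as high.

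Bright genes as a whole lay slightly lower in low feed efficiency: the median difference was 0.01 around a log2 signal of -2 and -0.20 around 7. Each member was therefore also set beside all genes within 0.5 of its mean log2 signal, a comparison chosen after the values were seen. For SELPLG these were 680 genes with a median of -0.11, and 5 of them (0.735%) were higher: SOD2, LOC515006, EMR3, TMEM156 and TCN1, likewise seen only in the data. Over all genes 527 (5.10%) were higher than SELPLG, and over the bright genes 1.93%. For its 2 dimmer probes, 6.94% and 15.0% of the probes of like signal were higher. The SELPLG difference stayed between 0.37 and 0.82 under 13 alternative settings, the highest with scaling on spike-in controls.

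**Figure D2:**
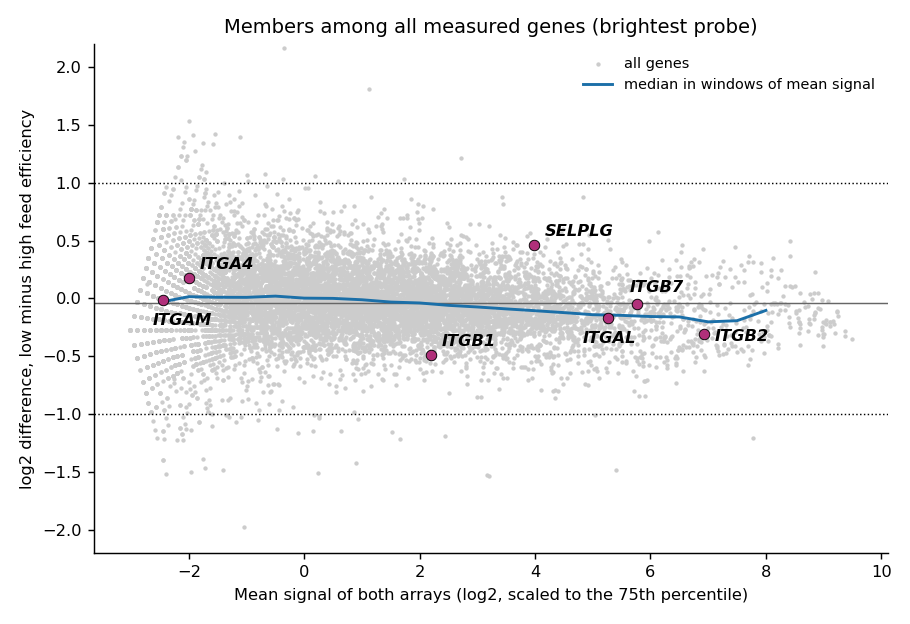
Difference of low minus high feed efficiency (log2) against mean signal (log2, scaled) for 10339 genes, each by its brightest probe; 9 genes lie beyond the axis, dotted lines mark 2-fold and the blue line is the median in windows of signal. SELPLG stands at the upper edge of genes of like signal and ITGB1 near the lower edge, while ITGB2, ITGAL and ITGB7 lie inside the cloud.

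ITGB2, the beta chain of LFA-1 and Mac-1, lay below 0 by all 6 of its probes. The 3 brightest read 10775 against 10995, 10120 against 10498 and 6827 against 7647 in low and high feed efficiency, with differences of -0.30, -0.33 and -0.44. The other 3 read 250 against 251, 100 against 97 and 30 against 29, with differences of -0.28, -0.23 and -0.23. The raw intensities of these last 3 were nearly equal, so their differences come from the scaling. The probes read at 10775 and 10120 in low feed efficiency also differed little before scaling, so it makes up most of their differences too. With spike-in scaling 5 of the 6 probes turned positive (0.05 for the brightest). The range of 0.21 over 6 probes was narrower than in 86% of the 50 genes with as many, and in 1 other of those genes every probe lay as low.

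Set beside the 148 genes of like signal, whose median was -0.19, ITGB2 by its brightest probe had 64.9% of them higher and 35.1% lower. Set beside all probes of their own signal, in place of genes, the 6 probes lay 0.19 to 0.30 below the median, with 74.8% to 86.9% of those probes higher; the one read at 6827 against 7647 stood lowest. The fold of the brightest probe was 1.23.

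ITGAL, the alpha chain of LFA-1, gave intensities of 3563 (low) and 3311 (high) by its brightest probe, a difference of -0.17. Before scaling this probe was higher on the low array, so its negative sign comes from the scaling. A second probe, of dim signal, read 35 against 37, a difference of -0.36, where the SD over replicate spots of dim probes was 0.34. The third read 26 against 33 but was flagged not found on both arrays and was left out; scaled in the same way it would give -0.62. All 3 lay on the same side after scaling, yet 338 genes of like signal had a median of -0.13, and 42.6% of them were lower than the brightest probe. The second probe, with both spots flagged good, lay 0.37 below the median of probes of like signal, 10.9% of which were lower. With spike-in scaling ITGAL had 0.19.

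ITGAM, the alpha chain of Mac-1 and a common marker of neutrophils and monocytes, was read near background by all 3 of its probes. They gave 18 against 15, 13 against 8 and 8 against 15 in low and high feed efficiency. The first had a difference of -0.01. The second passed the background cut on the low array alone, with no fold that the cut allows, and the third on the high array alone, where it was at least 1.65-fold higher. The array thus gave ITGAM no direction.

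ITGA4, the alpha chain of VLA-4, had an intensity of 26 on the low and 19 on the high array, a difference of 0.18. Its other probe read 14 against 10, the latter under the background cut (at least 1.05-fold higher in low). The value lay within the SD over replicate spots of dim probes, and it was -0.05 with normexp background correction. Of 1521 genes of like signal, 67.6% were lower.

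ITGB1, the beta chain of VLA-4 and of many other integrins, had the widest range of differences between its probes among the 5 members with more than 1 probe above background on both arrays. The brightest gave 379 on the low and 440 on the high array, a difference of -0.49, and its spot on the latter was unflagged rather than good. The other 2 read 81 against 57 and 52 against 33, differences of 0.23 and 0.38, with all spots flagged good. The range of 0.87 was wider than in all but 7.04% of the 1306 genes with 3 probes. Per the array's listing the brightest probe is matched to 1 Ensembl transcript and to no RefSeq transcript, while the other 2 are matched to 1 RefSeq transcript each. ITGB1 had 0.04 as the mean over probes and 0.23 when only spots flagged good were used, so it too was given no direction.

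ITGB7, the other partner of ITGA4, gave intensities of 5221 (low) and 4469 (high) by its brightest probe, a difference of -0.05. The others read 89 against 85 and 93 against 76, with differences of -0.21 and 0.02. These straddle 0, and the brightest took either sign across alternatives, from -0.06 to 0.31.

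ICAM1, the endothelial and activation-induced ligand, was above background on both arrays by none of its 3 probes. They read 13 against 10, 3 against 3 and 1 against 0 in low and high feed efficiency. The first passed the background cut on the low array alone, with no fold that the cut allows, and the other 2 on neither.

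**Figure D3:**
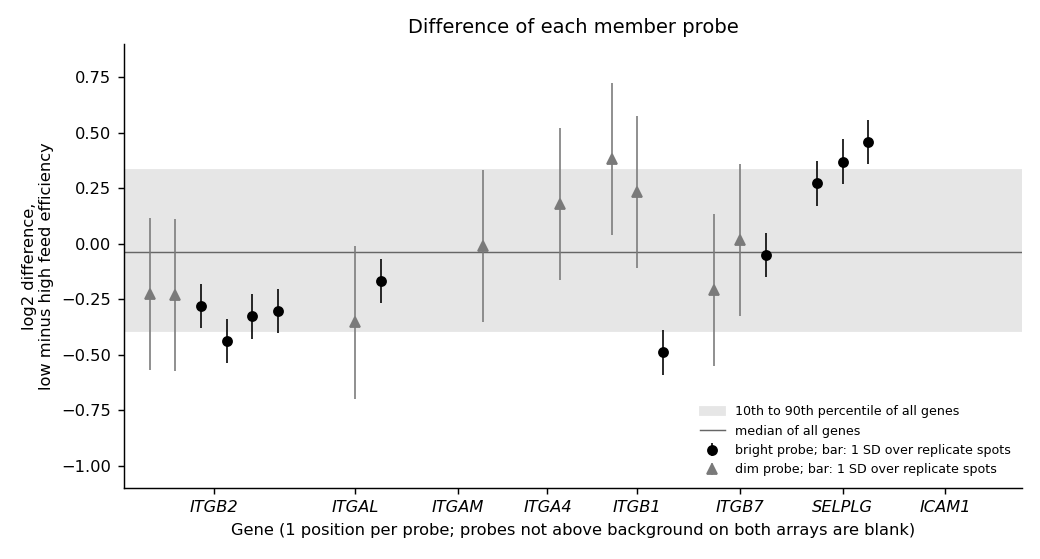
Difference (log2, low minus high feed efficiency) of each of the 19 member probes above background on both arrays, with 1 SD over replicate spots of bright (0.10) or dim (0.34) probes as bars; grey shows the 10th to 90th percentile of all genes. All SELPLG probes lie above 0 and all ITGB2 and ITGAL probes below it, while ITGB1 and ITGB7 probes lie on both sides.

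The chains of one receptor were compared by the differences of their brightest probes. For LFA-1 the alpha chain gene ITGAL lay 0.13 above ITGB2, and for Mac-1 ITGAM lay 0.29 above it, with ITGAM near background. For VLA-4 ITGA4 lay 0.67 above ITGB1, a gap set by the 1 ITGB1 probe below 0. Against ITGB7, ITGA4 lay 0.23 higher. Each gap that involves ITGAM or ITGA4 includes a probe from dim signal.

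Other genes of the adhesion cascade were taken from a list of 89 symbols, of which 82 had a probe and 60 were measured. Of these 60, none was 2-fold higher and 1 was 2-fold lower in low feed efficiency. Their median was -0.11, with 26 above and 34 below the median of all genes. The gene 2-fold lower was CHST4, a sulfotransferase that helps make selectin ligands, with intensities near background of 18 (low) and 39 (high). Its difference was -1.39, and -0.44 with normexp, from the 1 of its 3 probes above background on both arrays.

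Among the selectins, SELP, the P-selectin of platelets and endothelium and a partner of PSGL-1, lay lower in low feed efficiency, at 386 against 472. Its difference was -0.57, from a single probe, and 10 of 1263 genes of like signal (0.792%) were lower. SELE, the E-selectin of endothelium, read 5 against 7 and was under background on both arrays. SELE was chosen after its values were seen.

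In the remaining roles the gene farthest from 0 was under 2-fold. It was ITGA9 with 0.60 among 8 measured integrin alpha chains (22 against 12, and -0.05 with normexp). It was ITGB5 with -0.27 among 3 beta chains (15 on both arrays, so the difference comes from the scaling). Among 10 ligands and junction molecules it was ICAM5 with -0.57 (22 against 27, and -0.19 with normexp). Among 25 activators and adaptors it was PARVB, an adaptor that links integrins to actin, with -0.60. SPN, the sialomucin CD43, had -0.45, with its other probe at 0.05.

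**Figure D4:**
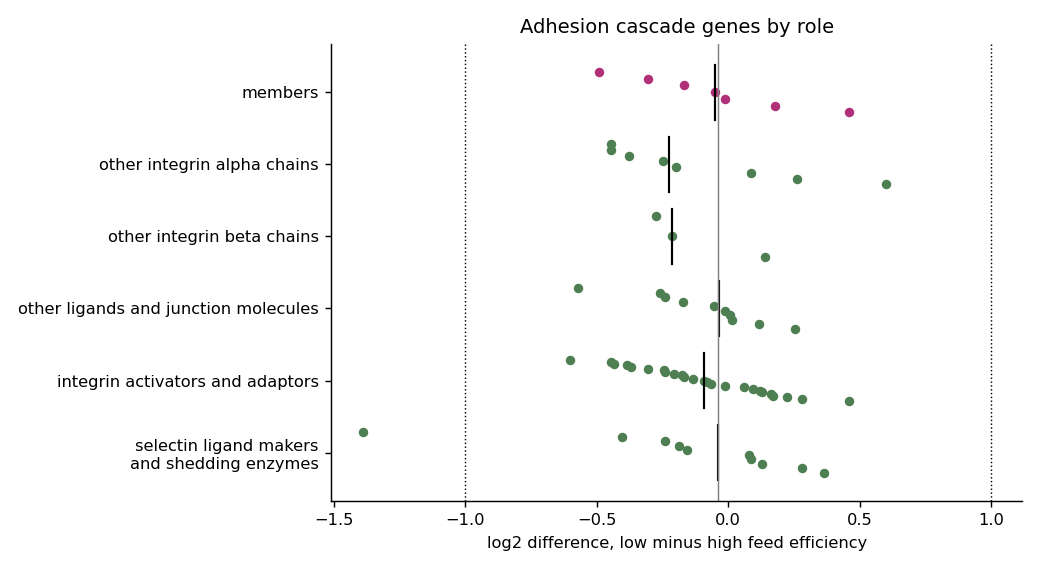
Difference (log2, low minus high feed efficiency) of the 7 measured members and of 56 other adhesion genes in the 5 roles with 3 or more measured genes; each point is a gene, black bars are medians, the grey line is the median of all genes and dotted lines mark 2-fold. CHST4 is the point beyond 2-fold, and the members spread from -0.49 to 0.46 around their median of -0.05.

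Blood cell markers moved beside these genes, and their part in the member values was not tested. Neutrophil markers had a median difference of 0.11 (9 of 12 over the all-gene median), and their summed scaled signal was 829 on the low and 733 on the high array. S100A12 (intensity 48851 against 34561) made up most of both sums and had 0.22, and S100A8 had 0.10. Natural killer markers had -0.34 (8 of 8 below the median of all genes, summed signal 206 against 268), with CCL5 at -0.43 and GZMB at -0.18. Monocyte markers had -0.15 (8 of 11 below, 557 against 658), with FCN1 at -0.41 and S100A4 at -0.14, and T cell markers -0.16 (10 of 13 below, 269 against 324), with CD4 at -0.41 (its other probe at 0.17) and CD247 at -0.17. B cell markers had -0.24 (6 of 9 below, 96.5 against 102). Of these, TNFRSF13C had -0.05 (its other probe at 0.01) and CD79A 0.11 (its other probe at -0.33). These lists and those that follow were not set against genes of like signal, and bright genes as a whole lay lower. Genes around a log2 signal of 6 had a median of -0.16, and those around 7 one of -0.20. GZMB, CD247 and S100A4, with signals of 6.04, 5.88 and 7.36, lay near these medians. FCN1, CCL5 and CD4, with signals of 7.46, 6.55 and 6.80, lay further down.

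Platelet markers had a median of -0.25 (5 of 8 below, summed signal 142 against 155), with PF4 at -0.05 and MYL9 at -0.58, and the 4 eosinophil and basophil markers -0.23 (all 4 below, 17.9 against 20.5), with CCR3 at -0.80 and ALOX15 at -0.10. Erythroid markers had 0.04 (3 of 6 below, 342 against 309), with HBA at 0.13 and HBB at 0.26. ALAS2, an enzyme of haem synthesis in red cell precursors, had -1.42 by a single probe (112 against 248) and was the 1 gene of all these lists at least 2-fold apart, named after its value was seen. Of the endothelial markers, CDH5, KDR, TEK and EMCN were under background on both arrays. The 3 measured ones (3.18 against 3.54) had -0.25, with PECAM1 at -0.06 (3 probes between -0.23 and 0.60) and VWF at -0.25. SELPLG lay above the medians of all 9 lists, and ITGB2 below those of all but the natural killer list. These ranks take no account of signal, and genes as bright as ITGB2 had a median of -0.19.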

How the data were processed

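The deposited scanner files give each spot's intensity, exported without normalization by GenePix Pro, per the file headers, whereas Agilent Feature Extraction is the tool in the submitters' processing notes. The intensity used is the pixel median minus a background taken from negative control spots. The deposited files also give, per spot, the percent of its pixels that were saturated and a flag as a score (100 good, 0 unflagged, -50 not found). The authors' deposited table of log2 values followed the scanner values only after a move by 1 row (Spearman's rho 0.077 as deposited and 1.00 after it in low feed efficiency) and was used as an alternative; how it was normalized is not stated in the labels or the table.

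Control spots were left out, as were spots flagged not found but bright (408 on the low and 283 on the high array), leaving 43096 probes. The background cut was the median of 153 negative controls plus 3 robust SDs. Probes were named through RefSeq accessions, symbols or synonyms of the bovine assembly ARS-UCD2.0, and 1662 with none of these kept the array's own gene name. The array files name no build, so no positions are given. No test was possible with 1 array per group. The calculation was tested on simulated data whose changes were all beyond 2-fold, so differences of the size seen in members were not tested this way. Members and gene lists were chosen with earlier results of these data known; comparisons with genes of like signal and of probe ranges were added after the values were seen. All members were named, in each role of the list the genes at least 2-fold apart or else the one farthest from 0, and in marker lists the 2 brightest. Alternatives used limma 3.58.1 for normexp (offset 50), quantile and loess normalization. The SD over replicate spots covers the array surface only, not animals or extractions. A result of the wider adhesion list is not reported here.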

Additional observations from a re-analysis of the deposited data

How the results depend on the processing

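No member gene was 2-fold apart under 13 alternative settings, and none was 1.5-fold apart in the setting reported; with spike-in scaling, where 1.5-fold was not counted, SELPLG had 0.82. Member genes had 86 values under alternatives, of which 66 moved by less than the SD over replicate spots, 20 moved by more and 12 changed sign. Scaling on 7 spike-in probes moved the median of all genes from -0.04 to 0.32, and with it the member median to 0.31. Relative to all genes SELPLG, ITGB2 and ITGAL kept their side under all 13, ITGAL by as little as -0.004 with normexp. Median and spike-in scaling shift all genes alike, so those settings could not change a side. Keeping spots flagged not found also shifted these genes alike. With the cut at 5 robust SDs, brighter probes only and saturated spots left out, their values were those of the setting reported. With good flags only this held for SELPLG and ITGAL. These settings could thus hardly change a side either. With brighter probes only, which left 5 members, the median was -0.17. The count of adhesion genes 2-fold apart, 1 in the setting reported, was 3 at 1.5-fold, and 0 at 4-fold, with brighter probes and with good flags only. With normexp and with the pixel mean it was again 1, but the gene was TPST1 in place of CHST4. Over all genes 97 were 2-fold apart (38 higher, 59 lower): spike-in scaling gave 234 (214 higher, 20 lower), a cut at 5 robust SDs 53, brighter probes 27 and good flags only 24, while 602 passed 1.5-fold and 10 passed 4-fold. The number of arrays limits the precision, and for ITGAM, ITGA4 and ICAM1 the signal over background does so too. No paired analysis was possible because each group had 1 array, and no array could be left out.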

Other observations

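Of the 25 measured integrin activators and adaptors, 10 lay above and 15 below the median of all genes, with a median of -0.09; the genes named here were chosen after their values were seen. Talin (TLN1), which switches integrins on from inside the cell, had -0.43 with 5 probes between -0.43 and -0.16, and kindlin-3 (FERMT3), its co-activator in blood cells, had -0.45 and -1.11 by 2 probes. The adaptor ILK had -0.38 with 3 probes between -0.39 and -0.36. Of genes of like signal, 13.6% were lower than TLN1, 7.02% lower than FERMT3 and 7.62% lower than ILK. Some other adaptors also lay below 0 by all probes, such as zyxin (ZYX), with -0.37 and 3 probes between -0.39 and -0.18. For ZYX, 26.5% of genes of like signal were lower. Others did not: vinculin (VCL) had -0.06 with 5 probes between -0.52 and 0.39, and filamin A (FLNA) -0.24 with 6 probes between -0.39 and 0.03. Some lay above 0 by all probes, such as RAP1B, with 0.10 and 3 probes between 0.10 and 0.28. SKAP2 had 0.17 with 3 probes between 0.10 and 0.30. STK4 had 0.28 and ITGB1BP1 0.22, each from 1 probe above background on both arrays. PARVB was above background on both arrays by 1 of its 3 probes. FYB1, an adaptor of T cell and platelet integrin activation, had 0.46 with 4 probes between 0.22 and 0.52, and 11 of 789 genes of like signal (1.39%) were higher.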
